A study of Mus musculus with 6 samples.

Results

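The genes that turn citrate or acetate into palmitate were followed in whole mouse lung at E18.5, shortly before birth, with and without Scap in respiratory epithelial cells. The set holds 9 genes: Slc25a1, Acly, Acss2, Acaca, Acacb, Fasn, Me1, Mid1ip1 and Thrsp. Its members were all probe sets whose only annotated symbol is one of these genes, 21 of the 45037 probe sets that are not array controls. In genes, that is 9 of the 18193 with a probe set of 1 symbol. The rule uses pathway step and symbol, and no measured value, but it was written with earlier results of these data known. The series holds 3 control lungs (Scap_control) and 3 lungs in which Scap was deleted from the respiratory epithelium (Scap_ko, also written Scap d/d), each RNA hybridised to an MOE430 V2 array. All 6 samples came from a mixed FVB/N and B6 background. The sources used here name neither the Cre driver, nor any agent that induces it, nor the alleles of the controls. They also do not say whether the 3 lungs of a group came from different fetuses; if they did not, the p-values reflect technical spread alone. The RNA is of the whole lung, so cells that still have Scap contribute to every value, and fewer cells of a type cannot be told apart from less RNA per cell.

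Scap escorts SREBP precursors out of the endoplasmic reticulum; proteases of the Golgi then free their active part, a transcription factor, for the nucleus. SREBP-1c in particular is known to switch on the genes of fatty acid synthesis. In that pathway citrate leaves the mitochondrion through Slc25a1 and is split by Acly into oxaloacetate and acetyl-CoA, while Acss2 makes acetyl-CoA from acetate. Acaca and Acacb carboxylate acetyl-CoA to malonyl-CoA, and Fasn joins malonyl units into palmitate with NADPH, part of which Me1 supplies. Mid1ip1 is a small protein that binds acetyl-CoA carboxylase and promotes its assembly into active filaments, and Thrsp is a related protein. In the lung before birth, alveolar type II cells make palmitate for the phosphatidylcholine of surfactant.

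The promoters of 3 members are shown because Mid1ip1 and Fasn had the smallest p-values of the 7 tested genes and Slc25a1 the smallest difference. Each sequence is the 250 bases before an annotated transcript start, from RefSeq on build GRCm38.p6, where all 9 genes had at least 1 window and Me1 had 2. Capitals mark matches on either strand to any of 4 motifs: TCACNCCAC, a form of the sterol regulatory element; CACGTG, an E-box; CCAAT, the box bound by NF-Y; and GGGCGG, the box bound by Sp1. The windows are chr11:120824548-120824797 (minus strand) for Fasn, chrX:10717115-10717364 (plus strand) for Mid1ip1 and chr16:17928220-17928469 (minus strand) for Slc25a1.
Fasn: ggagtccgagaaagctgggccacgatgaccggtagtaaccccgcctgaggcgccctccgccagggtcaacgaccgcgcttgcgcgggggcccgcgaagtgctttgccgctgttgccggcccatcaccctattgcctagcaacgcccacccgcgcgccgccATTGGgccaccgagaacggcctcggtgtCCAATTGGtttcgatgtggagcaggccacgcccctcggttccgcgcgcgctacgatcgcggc
Mid1ip1: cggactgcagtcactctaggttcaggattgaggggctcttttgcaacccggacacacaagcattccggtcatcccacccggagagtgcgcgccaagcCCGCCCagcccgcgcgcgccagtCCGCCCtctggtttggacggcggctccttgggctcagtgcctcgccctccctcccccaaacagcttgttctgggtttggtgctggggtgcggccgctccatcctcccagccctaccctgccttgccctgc
Slc25a1: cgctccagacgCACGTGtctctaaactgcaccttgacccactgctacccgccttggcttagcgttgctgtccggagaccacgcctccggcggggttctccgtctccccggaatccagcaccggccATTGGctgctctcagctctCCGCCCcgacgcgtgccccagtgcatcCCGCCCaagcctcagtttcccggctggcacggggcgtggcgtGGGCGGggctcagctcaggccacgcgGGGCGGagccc
The start used for Fasn lies inside the gene's annotated span, so its window does too. The same holds for the windows of Acaca and Acacb and for 1 of the 2 Me1 windows. In the Fasn window CCAAT lay 90 to 86 bases before the start and 59 to 55 bases before it on the other strand, and 62 to 58 bases before it on the gene's own strand, so the last pair overlapped. The Mid1ip1 window held 2 GGGCGG matches, and Slc25a1 was the only member with CACGTG, 239 to 234 bases before its start. TCACNCCAC was in 0 of the 10 member windows and in 1.05% of all 32851 windows of this length. CACGTG was in 1 of the 10 windows against 6.02% of all, CCAAT in 6 against 33.8% and GGGCGG in 5 against 32.7%. The CCAAT matches of Fasn, Acacb and Me1 lay in windows inside those genes. A match describes letters only and is not a binding site.

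Signals are linear units that the authors deposited, means are given ± SD with n = 3 arrays per group, and differences are Scap-deleted minus control on the log2 scale with the standard error (SE) from limma. Array medians lay between 490.9 and 530.5 units. A probe set was tested where its geometric mean signal over the 6 arrays reached 497.8 units, the median of all probe sets; whether dimmer ones lie above background is not known. Each gene entered a fit over 10972 genes through its brightest probe set, and a second fit took all 19346 probe sets above the limit. Adjusted p is Benjamini-Hochberg over the whole of the fit in question. The targeted transcript was lower on average with overlapping groups: Scap read 7264.1, 4194.6 and 3079.7 in controls and 1846.8, 3285.8 and 2702 in Scap-deleted lungs (limma unadjusted p = 0.0371, adjusted p = 0.808). Whether the probe set lies within the deleted stretch of Scap is not known from the sources, so this reading may not check the deletion.

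Every tested gene of the set read lower on average in Scap-deleted lungs, from 93.1% of control for Slc25a1 to 59.8% for Fasn. Of the 9 genes 7 could be tested, and all 7 had negative differences, from -0.10 to -0.74, where 48.3% of all genes tested were negative. The median tested member stood at 78.2% of control, against 100.4% for the median of all genes tested. By limma 0 of the 7 passed an adjusted p of 0.05, as did 0% of all genes in the lower direction, and 0.00911% in the higher (1 gene, Acox2, which is not a member). At an unadjusted p of 0.05, 3 members were lower (Mid1ip1, Fasn and Acaca), where 3.04% of all genes were, and 0 were higher (2.88% of all). The groups did not overlap, with all Scap-deleted arrays below all controls, in 4 of the 7 (those 3 and Acly), against 5.72% of all genes; 0 lay wholly above the controls (6.11% of all).

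At the level of probe sets, 12 of the 21 were above the brightness limit and all 12 had negative differences, against 49.5% of all probe sets tested. Limma called 0 of the 12 over the 19346 probe sets and 0% of all probe sets in either direction; 5 of the 12 were lower at an unadjusted p of 0.05 (2.97% of all) and 0 higher (2.58%). The groups were separate with the Scap-deleted arrays lower in 6 (5.6% of all) and higher in 0 (5.27%). Of the 9 dimmer probe sets, 7 had negative and 2 positive differences, and 3 had separate groups, against 7.66% of all dim probe sets.

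**Figure D1:**
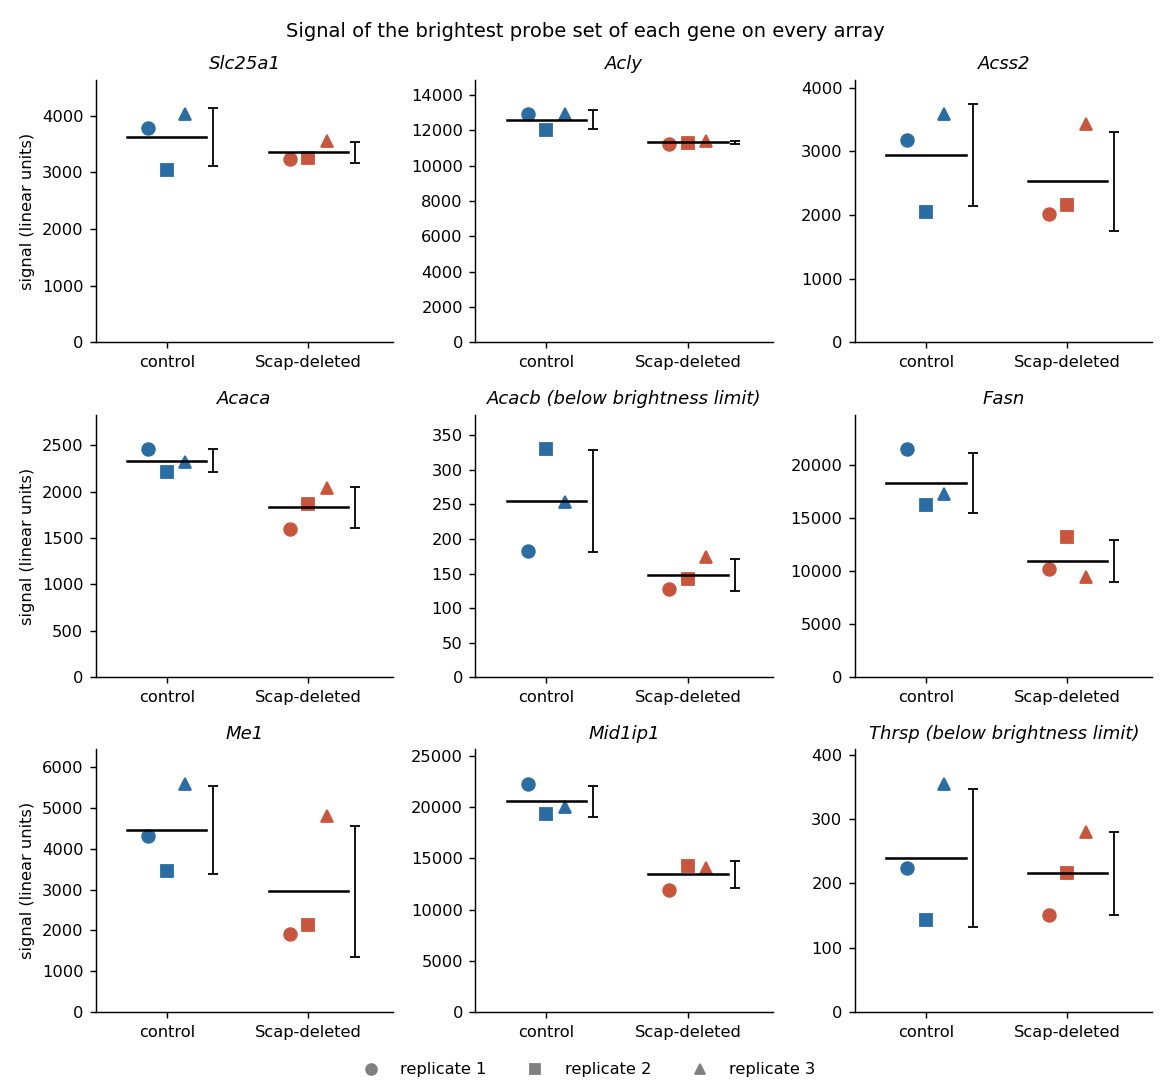
Linear signal (y axis, from 0) of the brightest probe set of each of the 9 genes on the 3 control arrays (blue) and the 3 Scap-deleted arrays (red); symbols give the replicate number, horizontal bars the mean and vertical bars ± 1 SD. Acly, Acaca, Acacb, Fasn and Mid1ip1 have every Scap-deleted array below every control array; for Acss2 and Me1 the Scap-deleted array numbered 3 lies among the controls.

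Among the tested genes, citrate export and cleavage showed the smallest differences. Slc25a1, the mitochondrial citrate carrier (chr16:17925211-17928219), read 3791.6, 3047.1 and 4030.7 in controls and 3237, 3261.4 and 3556 in Scap-deleted lungs. The groups overlapped, since control 2 was the lowest of all 6 arrays. The difference was -0.10 (SE 0.13, 95% interval -0.40 to 0.19, adjusted p = 0.959).

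Acly, ATP citrate lyase (chr11:100476352-100528000), read 12913.3, 11987.2 and 12917.5 in controls and 11230.7, 11302.5 and 11394.6 in Scap-deleted lungs. The Scap-deleted arrays lay close together and just below the lowest control, at 89.8% of control (difference -0.16, SE 0.09, adjusted p = 0.879). The other 2 bright Acly probe sets stood at 92.0% and 90.8%, and their groups overlapped. The interval of the brightest, -0.36 to 0.05, includes no difference. The 3 dim Acly probe sets, with signals between 21.1 and 214.9, stood at 42.9%, 70.1% and 139% of control. Only the first of these had separate groups (exact two-sided permutation p = 0.1).

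Acss2, which makes acetyl-CoA from acetate (chr2:155518043-155562743), varied widely between arrays and between probe sets. Its brightest probe set read 3183.5, 2045.6 and 3587.7 in controls and 2013.5, 2160.8 and 3424.5 in Scap-deleted lungs. Control 2 was as low as the lower Scap-deleted arrays, and Scap-deleted 3 was among the controls. The difference was -0.22 (SE 0.27, adjusted p = 0.959), and its interval of -0.84 to 0.40 is too wide to bound the change closely. The second Acss2 probe set read 1811.3, 1640.8 and 2248 in controls and 965.6, 869.7 and 2066.1 in Scap-deleted lungs. There Scap-deleted 1 and 2 lay below every control while Scap-deleted 3 did not, and the difference was -0.65 (SE 0.32, limma unadjusted p = 0.0784, adjusted p = 0.911). Against the control of its own number it was lower in 3 of 3 pairs, and with the replicate number as a block the unadjusted limma p was 0.0122 (adjusted p = 0.524, with a range of 0.307 to 0.9998 over the alternatives). Without Scap-deleted replicate 3 this difference was -1.04, and without Scap-deleted replicate 2 it was -0.42. The dim Acss2 probe set stood at 166% of control, with overlapping groups (exact two-sided permutation p = 0.3). With 1 array left out, the difference of the brightest probe set ranged from -0.05 without control replicate 3 to -0.46 without control replicate 2.

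The carboxylases read lower on every probe set. Acaca, the cytosolic acetyl-CoA carboxylase that feeds fatty acid synthesis (chr11:84129635-84401651), read 2459, 2214.7 and 2320.2 in controls and 1591.7, 1865.6 and 2033.2 in Scap-deleted lungs. No array of either group crossed into the other. It stood at 78.2% of control (difference -0.36, SE 0.12, 95% interval -0.63 to -0.08, limma unadjusted p = 0.0171, adjusted p = 0.739). Without control replicate 1 the difference was -0.32, and without Scap-deleted replicate 1 it was -0.26, and neither passed an unadjusted p of 0.05.

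The second Acaca probe set, dimmer but above the limit, read 640.7, 663.7 and 814.3 in controls and 391.4, 498.4 and 394.4 in Scap-deleted lungs. Its groups were separate too, and its difference was larger, -0.72 (SE 0.15, limma unadjusted p = 0.00137, adjusted p = 0.540). The gene has several promoters and splice forms, and which of them each probe set reads is not known from the sources.

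Acacb, the carboxylase at the mitochondrial surface whose malonyl-CoA restrains fatty acid oxidation (chr5:114146321-114250761), was dim. Its brighter probe set read 182.3, 330.2 and 252.9 in controls and 127.8, 142.7 and 173.9 in Scap-deleted lungs, and the dimmer one read 111.1, 121.1 and 134.2 against 66, 86.7 and 63.4. Both had separate groups, at 59.3% and 58.6% of control. Each gave an exact two-sided permutation p = 0.1, the smallest that 3 against 3 arrays allow, and for the brighter one it was 0.2 after quantile normalization.

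Fasn, the multifunctional synthase that builds palmitate (chr11:120805958-120825166), had the most negative difference of the 7 tested genes when each was taken by its brightest probe set; the second Me1 probe set lay lower, at -0.91. It read 21519.5, 16199.6 and 17251.8 in controls and 10239.3, 13213 and 9490.7 in Scap-deleted lungs. The highest Scap-deleted array stayed below the lowest control. The mean went from 18324 ± 2817 to 10981 ± 1969, or 59.8% of control (difference -0.74, SE 0.16, 95% interval -1.12 to -0.36). Its limma p was 0.00218 unadjusted and 0.671 adjusted over all genes, and by p it ranked 31 of 10972.

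Me1, the cytosolic malic enzyme that yields NADPH (chr9:86581363-86695914), lay below every control in 2 of the 3 Scap-deleted lungs on its brightest probe set. Its brightest probe set read 4315.6, 3451.7 and 5586.7 in controls and 1915.4, 2135.7 and 4809 in Scap-deleted lungs. Scap-deleted 1 and 2 were far below every control, and Scap-deleted 3 was above control 1 and control 2. The difference was -0.69 (SE 0.35, adjusted p = 0.865), and it was -1.11 without Scap-deleted replicate 3 (adjusted p = 0.301, the lowest over the alternatives, which reached 0.999). Without Scap-deleted replicate 1 it was -0.45.

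The second Me1 probe set read 2967.5, 2822.4 and 3591.4 in controls and 1432, 1239.4 and 2580.2 in Scap-deleted lungs. Here even Scap-deleted 3 lay below every control, and the gene stood at 53.4% (difference -0.91, SE 0.27, limma unadjusted p = 0.0103, adjusted p = 0.765). With the replicate number as a block the unadjusted p of the brightest Me1 probe set went from 0.0862 to 0.00878 (adjusted p = 0.428), so 4 members rather than 3 were lower at an unadjusted p of 0.05, where the share of all genes was 4.52% (4.18% higher).

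Mid1ip1 was bright and lower, and the related Thrsp was dim and unresolved. Mid1ip1 (chrX:10717365-10719702) read 22277.3, 19367.7 and 20036.8 in controls and 11949.2, 14253.9 and 14075.7 in Scap-deleted lungs. The gap between the groups was wider than the spread within either. It stood at 65.2% of control (difference -0.62, SE 0.11, 95% interval -0.88 to -0.36) and had the smallest p of the set, 0.000697 unadjusted, rank 16 of 10972, with an adjusted p = 0.478.

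Thrsp, also called Spot 14 (chr7:97412933-97417550), had 3 probe sets, all below the brightness limit. The brightest read 223.1, 142.5 and 354.7 in controls and 150.9, 216.1 and 280 in Scap-deleted lungs, so the groups overlapped. Its exact two-sided permutation p was 0.9, and the other probe sets gave 0.7 and 0.5. No level change of Thrsp could be resolved at these signals.

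**Figure D2:**
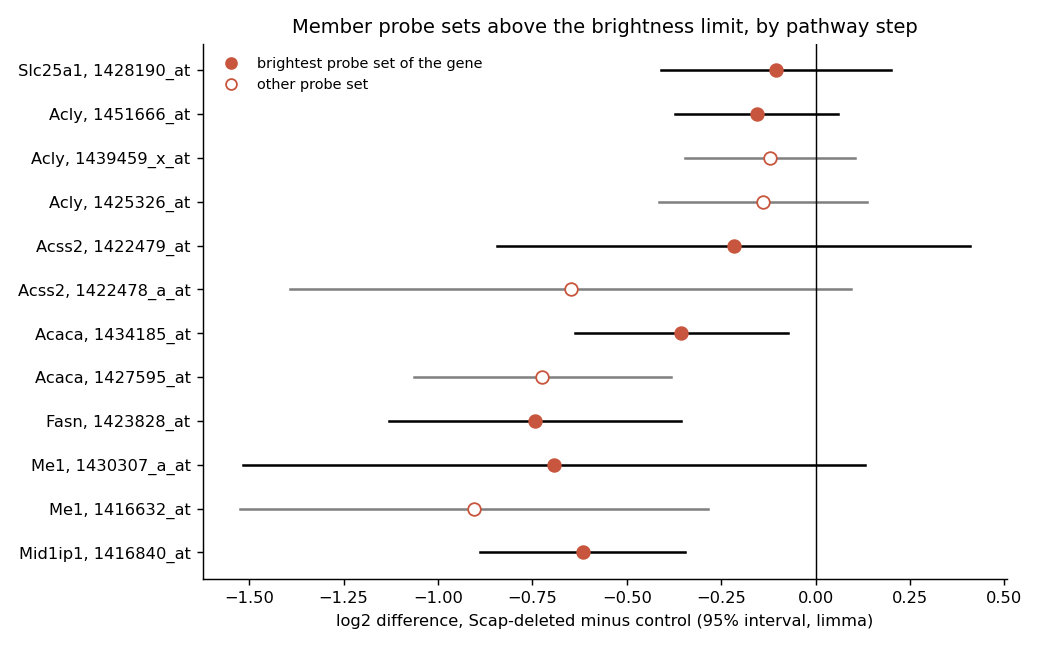
Log2 difference (x axis, Scap-deleted minus control) with its 95% interval from limma for the 12 member probe sets above the brightness limit, ordered by pathway step; filled points are the brightest probe set of each gene, open points the others. All 12 points lie below 0, and the intervals of both Acaca probe sets, Fasn, Mid1ip1 and the dimmer Me1 probe set exclude 0.

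Differences between members were then examined. On each array the log2 signal of each other tested gene was set against that of Acly, a comparison chosen after the values were seen. Relative to Acly the log2 difference was -0.59 for Fasn, -0.46 for Mid1ip1 and -0.20 for Acaca, each with separate groups and an exact two-sided permutation p = 0.1, the smallest possible (0.2 after Benjamini-Hochberg adjustment over the 6 comparisons). Me1 was at -0.54 with overlapping groups (p = 0.3 by the same exact test). Slc25a1 at 0.05 (exact p = 0.8) and Acss2 at -0.06 (exact p = 1) lay within the spread of their ratio to Acly. These tests do not reach p of 0.05 in this design. Fasn, Mid1ip1 and Acaca also had separate groups without reference to Acly. The share of all genes with separate groups relative to Acly was not determined, so these separations are a description only.

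**Figure D3:**
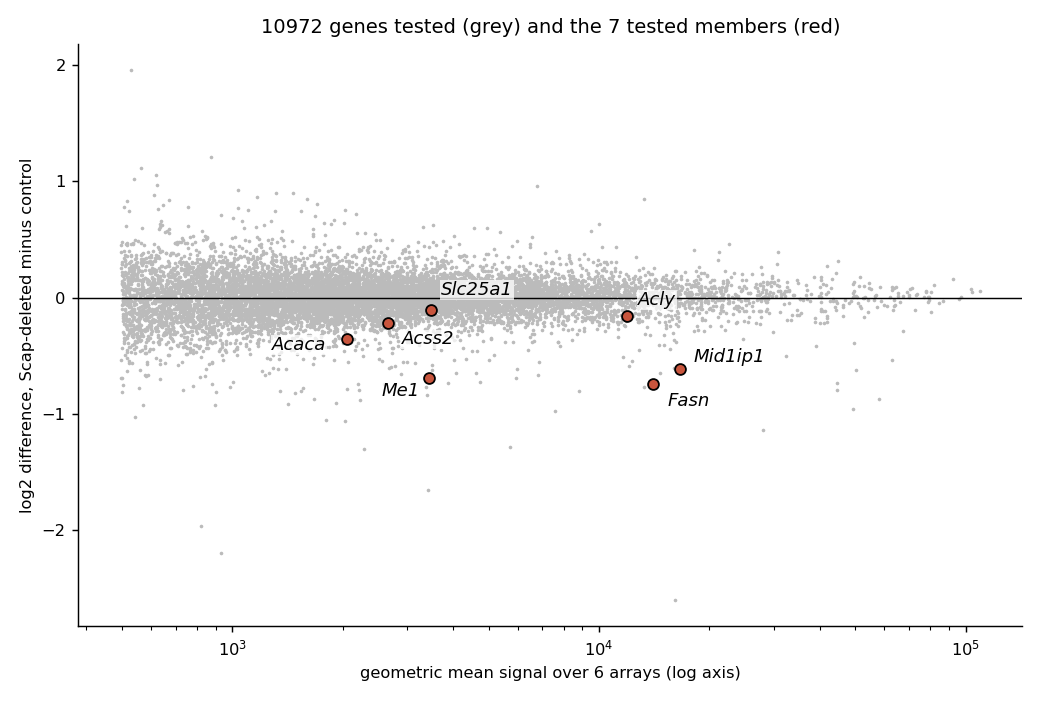
Log2 difference (y axis, Scap-deleted minus control) against geometric mean signal over the 6 arrays (x axis, log scale) for the 10972 genes tested, with the 7 tested members in red. Slc25a1 and Acly lie in or near the bulk of genes, whereas Fasn, Mid1ip1 and Me1 lie below it, between -0.62 and -0.74.

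The gap between a Scap-deleted array and the control of its number varied by member. The arrays numbered 3 of both groups stand apart from the other 4 on the first principal component, which holds 36.6% of the variance. Set against the control of its own number, Scap-deleted 3 stood at 86.1% for Me1, 95.5% for Acss2 and 91.9% for the second Acss2 probe set. For Scap-deleted 1 the same values were 44.4%, 63.2% and 53.3%. Fasn had another order, with 47.6% in number 1, 81.6% in number 2 and 55.0% in number 3. Mid1ip1 stood at 53.6%, 73.6% and 70.2%, and Acly at 87.0%, 94.3% and 88.2%. Acaca stood at 64.7%, 84.2% and 87.6% on its brightest probe set and at 61.1%, 75.1% and 48.4% on the second. Without both arrays numbered 3 the median tested member was at -0.44 instead of -0.36 log2, and Me1 at -0.93 (adjusted p = 0.309). In Sftpa1, the gene of a surfactant protein, Scap-deleted 3 was also the highest of its group, with 39988.4, 36558.6 and 48755.4 in controls and 14767, 12965.4 and 35042.3 in Scap-deleted lungs; it was picked out after its values were seen.

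**Figure D4:**
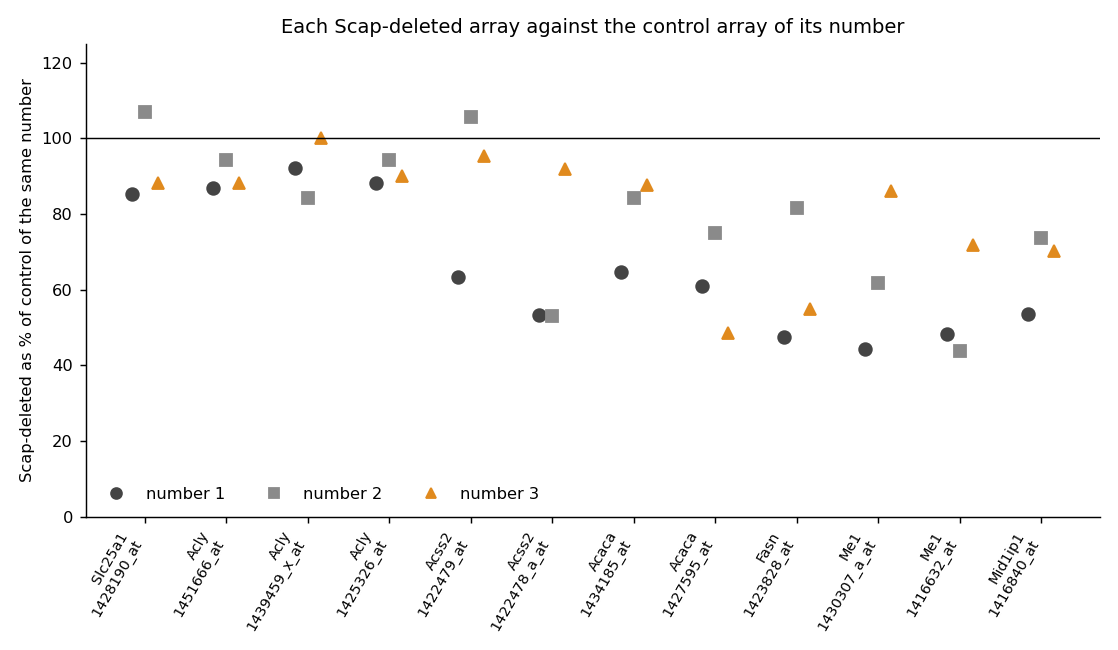
Signal of each Scap-deleted array as percent of the control array of the same number (y axis, from 0) for the 12 member probe sets above the brightness limit, in pathway order; the line marks 100%. The triangles of number 3 lie above the circles of number 1 for Acss2 and Me1 (95.5% against 63.2% and 86.1% against 44.4%), and close to them for Fasn. They also lie above for the brightest Acaca probe set (87.6% against 64.7%) and Mid1ip1 (70.2% against 53.6%). For the second Acaca probe set they lie below (48.4% against 61.1%).

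Steps before citrate export, and other enzymes of acetyl-CoA and malonyl-CoA, had medians near control level. The list around pyruvate entry and citrate formation had 13 tested genes. It also holds the inhibitory pyruvate dehydrogenase kinases Pdk1 to Pdk4 and the cytosolic aconitase Aco1, so not all its genes form citrate. Of the 13, 9 were negative and 4 positive, and the median stood at 97.7% of control. By limma 0 passed an unadjusted p of 0.05 and 0 an adjusted one. Dld, a shared subunit of 2-oxoacid dehydrogenases, stood at 111%, Pdhx, a structural subunit of the pyruvate dehydrogenase complex, at 90.0%, and Pcx, pyruvate carboxylase, at 111%. Of 5 tested genes of other acetyl-CoA and malonyl-CoA enzymes, 0 passed either threshold; Mlycd, which breaks malonyl-CoA down, stood at 119.7% (difference 0.26, SE 0.12, adjusted p = 0.849).

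A list of other genes around NADPH supply stood near control level at its median. It also holds enzymes that do not make NADPH themselves, such as Pgls, Rpia, Rpe, Tkt, Taldo1 and Mdh1. Of 12 tested genes 7 were negative and 5 positive, with a median at 98.4%, and 1 was lower at an unadjusted p of 0.05 (3.04% of all genes). That gene was Idh1, cytosolic isocitrate dehydrogenase, which read 11045.7, 10091.1 and 11387.2 in controls and 9059.2, 8389.3 and 9606.7 in Scap-deleted lungs, with separate groups (difference -0.27, SE 0.10, adjusted p = 0.798). Within the pentose phosphate pathway, Pgd stood at 109.5%, Pgls at 113.0% and the transketolase Tkt at 86.2%, all with overlapping groups. G6pdx, the first enzyme of that pathway, was not analysed here.

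Among 17 tested regulators of acetyl-CoA carboxylase, 13 were negative and 4 positive, with a median at 97.7%. At an unadjusted p of 0.05, 1 was higher (2.88% of all genes): Trib3, a pseudokinase that can direct the carboxylase to degradation, from 797.6 ± 71.9 to 1369 ± 223 (difference 0.77, SE 0.14, adjusted p = 0.513). Prkaa2, a catalytic subunit of the inhibitory kinase AMPK, stood at 80.2% (adjusted p = 0.849), although its second probe set above the limit stood at 98.0%. Brca1, whose product binds phosphorylated carboxylase, stood at 79.4% (adjusted p = 0.874). Mitochondrial fatty acid synthesis, a separate pathway that makes octanoate for lipoic acid, had 8 tested genes, 7 negative and 1 positive, with a median at 98.6%. Its member of smallest p, Mecr, stood at 78.3% on its brightest probe set and at 123.2% on another above the limit.

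Enzymes that desaturate, elongate or activate fatty acids, not palmitate alone, also read lower. All 12 tested desaturase, elongase and acyl-CoA synthetase genes were negative, against 48.3% of all genes, with a median at 82.6% of control. At an unadjusted limma p of 0.05, 5 were lower, against 3.04% of all genes, and limma called 0 over all genes. Scd1, which puts the first double bond into palmitoyl- and stearoyl-CoA, stood at 16.5% of control (difference -2.60, SE 0.39, adjusted p = 0.319), Scd2 at 68.9% and Fads1, a desaturase of polyunsaturated fatty acids, at 69.0%. Scd1 passed (adjusted p = 0.0127) in the fit without Scap-deleted replicate 2, its lowest over the alternatives, where it reached 0.850. A second Fads1 probe set above the limit stood at 100.5%. Elovl6, which lengthens palmitate, stood at 91.4%.

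The 22 tested regulators of lipogenic genes included SREBP processing proteins such as Scap and Insig1, and kinases such as Mtor, beside transcription factors. Of these 15 were negative and 7 positive, and the median stood at 96.4%. At an unadjusted limma p of 0.05, 4 were lower (3.04% of all genes): Scap, Insig1, Srebf1 and Srebf2. Scap is the deleted gene itself, so its place among them is no separate result. Srebf1, the gene of the SREBP-1 forms, read 7057.1, 7207.7 and 8415.9 in controls and 4547.6, 5310.2 and 4206.6 in Scap-deleted lungs, with separate groups (61.9% of control, adjusted p = 0.478). Srebf2 stood at 68.2% and Insig1 at 40.5%. Mlxipl, the carbohydrate-responsive factor ChREBP that also acts on lipogenic genes, was below the brightness limit, at 316.2 ± 79.8 and 260.8 ± 185.

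**Figure D5:**
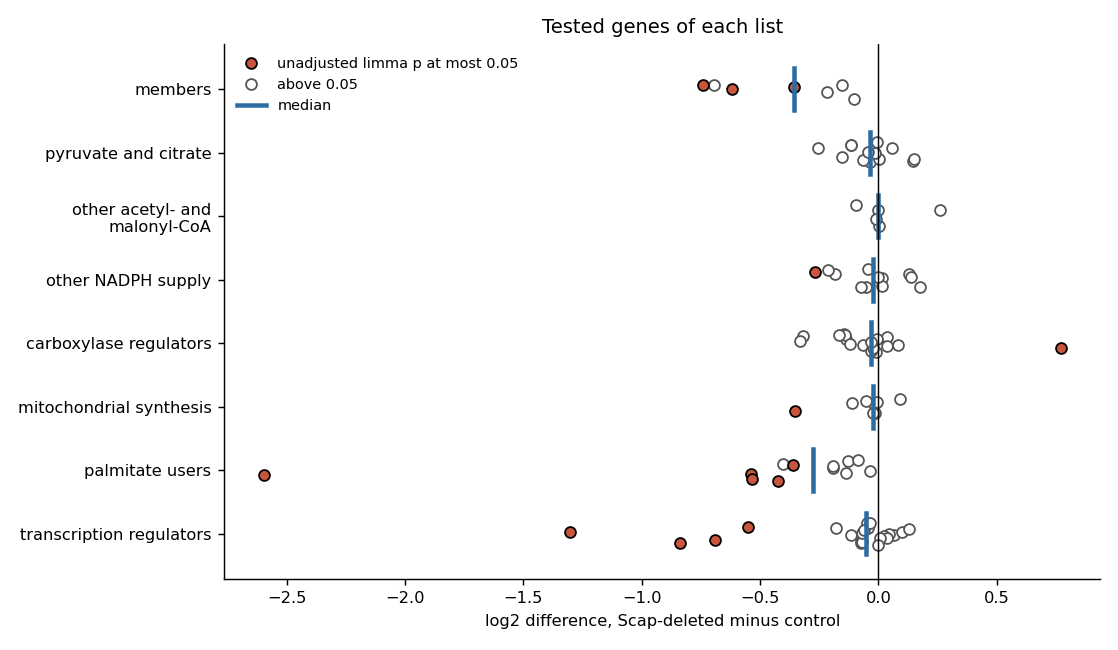
Log2 difference (x axis, Scap-deleted minus control) of every tested gene in the set and in 7 other lists of the pathway, 1 point per gene (vertical scatter is only for legibility); red points have an unadjusted limma p of at most 0.05 and blue bars are medians. The medians of the set and of the list labelled palmitate users lie at -0.36 and -0.28, and those of the other 6 lists between -0.05 and 0. The list labelled palmitate users also holds enzymes of other fatty acids, such as Fads1. The list labelled transcription regulators also holds SREBP processing proteins and kinases, such as Scap and Mtor. The list labelled other NADPH supply also holds enzymes that make no NADPH, such as Tkt, and that labelled pyruvate and citrate also holds the kinases Pdk1 to Pdk4.

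Likeness to a member was measured as the root mean square difference between log2 profiles over the 6 arrays, each centred on its own mean. Within the set the closest pair was Slc25a1 and Acly (0.10), followed by Acaca with Mid1ip1 and with Acly (0.14 each), while Fasn and Me1 were the farthest apart (0.56). Among all tested genes outside the set, those nearest to Fasn were Fgfbp1, a binding protein of fibroblast growth factors (0.14), Fads1 (0.15), the growth factor receptor Fgfr2 (0.16) and Srebf2 (0.16). The nearest to Acly included Rnf10 (0.02), Prrg3 (0.02) and Eif4h (0.03), genes with small differences between -0.17 and -0.10. With 6 arrays and this many genes, close profiles are a description only.

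Markers of lung cells were present, and some markers of other tissues differed between arrays. The 11 tested alveolar type II genes were all bright; 8 were negative and 3 positive, with a median at 89.6% of control and 5 lower at an unadjusted p of 0.05, where 48.3% of all genes were negative and 3.04% lower at that p. Their summed signal ran from 409468 to 502349 in controls and from 347138 to 424607 in Scap-deleted lungs. The part of this shift in the members' differences was not tested. The 9 general epithelial markers had a median at 103.1%, with 6 positive and 3 negative, and their sum lay at 99470 to 107259 in controls against 106242 to 108801 after deletion. Of 8 liver markers 0 were above the brightness limit, but their sum was 1053 to 10067 in controls against 980.5 to 1269 in Scap-deleted lungs. Both control 1 and control 2 read high for Alb, at 1799.9 and 1047.8 against 219.1 in control 3 and 132.8 to 260.5 after deletion, and for Afp, at 693.2 and 6700.1 against 22.2 and 40.1 to 64. Without control replicate 1 Fasn was at -0.62 and Mid1ip1 at -0.56, and without control replicate 2 they were at -0.83 and -0.66. Each of these fits keeps the other control that read high for Alb and Afp, and control 3 had a liver sum of 1053. Of 10 heart and muscle markers 5 were tested, all 5 positive, and their sum was 37768 to 45698 against 38172 to 66572, the highest through Nppa at 11125.1 in Scap-deleted 1. Without that array Fasn was at -0.70 and Mid1ip1 at -0.54. The part of liver or heart RNA in the members' differences was not tested. Fat cell markers summed to 6330 to 7229 in controls against 6455 to 7211 after deletion, mostly from Slc36a2 and Lipe, the 2 tested markers, with overlapping groups. The other 7 were dim and went both ways. Adipoq read 17.9 to 60.3 in controls and 62.5 to 157.2 after deletion. Retn read 75.2 to 298.7 and 336.4 to 479.4, and Ucp1 8.6 to 44.8 and 8 to 21.4. Adipoq, Retn and Lep stood at 225%, 215% and 268% of control. Cidea, Cidec, Elovl3 and Ucp1 stood at 69.4%, 82.7%, 92.5% and 64.7%.

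Of 10 leukocyte markers 7 were tested, 5 positive and 2 negative, with a median at 105.2%. Their sum was 91280 to 104314.5 in controls and 58338 to 69659 after deletion. Most of it was Lyz1, a lysozyme gene close in sequence to Lyz2 whose probe set may read both, at 72681 to 81614.5 against 36990.2 to 47356.5. Lyz2, counted above among the alveolar type II genes, stood at 57.7% of control. This sum may therefore not be of leukocytes alone. Ptprc, the common leukocyte antigen CD45, read 1950.8 to 2152 in controls and 2009.3 to 3043.4 after deletion. The median marker stood at 84.5% for airway cells (6 of 7 negative), 86.7% for endothelium (7 of 8 negative), 95.4% for lipofibroblasts and fibroblasts (6 of 8 negative) and 83.8% for erythroid cells (2 of 2 negative). The part of these cell types in the members' values was not tested.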

How the data were processed

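Total RNA of 6 whole lungs at E18.5 was extracted with an RNeasy kit and biotin-labelled for MOE430 V2 arrays, per the labels' protocols. The authors deposited linear signal intensity for 45101 probe sets; RMA is named in the submitters' processing notes, but the values are linear, differ in distribution between arrays and have a minimum of 0.2; software and background correction are not given in the sources. After removal of 64 control probe sets, signals were put on the log2 scale with no pseudocount. By the platform annotation 34945 of the remaining 45037 probe sets have a single symbol, 932 have several and 9160 have none. A gene was represented by its single-symbol probe set of highest geometric mean, and those under 497.8 units were not tested.

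Groups and numbers come from the titles. Linear models without covariates (lmFit, eBayes; 4 residual degrees of freedom) were fitted in limma 3.58.1 under R 4.3.3; dim probe sets and ratios had exact two-sided permutation tests. Steps were tested on simulated data. The members, the gene lists and the tests were chosen with earlier results of these data known. Genes outside the set were named by a rule: up to 3 of smallest p per list, some set regulators and enzymes, and the 4 nearest profiles to Fasn and to Acly; an uncharacterised clone among the latter was passed over. Adipoq, Retn, Ucp1, Slc36a2, Lipe, Alb, Afp, Nppa, Lyz1 and Ptprc were chosen after their values were seen. Deviations from the group means correlated at 0.17, 0.20 and 0.43 between arrays numbered 1, 2 and 3. Arrays of like number were taken as pairs only in the replicate block and in the comparisons by number. The main fits had no pairing. The titles give numbers only, so the pairing rests on them and on these same data. Control 2 with Scap-deleted 1 reached 0.18, above the value for number 1. Alternatives were the replicate block, quantile and median scaling, a pseudocount of 50, other brightness limits, an intensity trend, the mean of a gene's probe sets, and leaving out arrays. The number of arrays limits the precision.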

Additional observations from a re-analysis of the deposited data

How the results depend on the processing

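Under 15 alternative settings the 7 tested member genes kept negative differences wherever they were tested, and 0 members passed an adjusted limma p of 0.05 in any of them. Over all alternatives Fasn ranged from -0.88 to -0.62, Mid1ip1 from -0.67 to -0.54 and Acaca from -0.54 to -0.26 log2. Me1 ranged from -1.11 to -0.45, Acss2 from -0.46 to -0.05, Acly from -0.19 to -0.14 and Slc25a1 from -0.22 to -0.02 log2. The number of members lower at an unadjusted limma p of 0.05 was 3 in the main fit and 4 with the replicate block. Leaving out 1 array gave 2 to 4 such members, since Acaca did not pass without control replicate 1 or without Scap-deleted replicate 1, and Me1 passed without Scap-deleted replicate 3. The median log2 difference of the members, -0.36, became -0.54 with the mean of each gene's probe sets, which adds the lower second probe set of Acaca, the median member. The count of 1 gene called over all genes became 0 with the replicate block, no filter, the filter at the 75th percentile, the intensity trend and without both arrays numbered 3, and 0 to 1 when 1 array was left out; the cause was not tested. The count of 0 probe sets called became 1 with the filter at the 75th percentile, 2 with the intensity trend, and 0 to 1 when 1 array was left out. Genes at an unadjusted p of 0.05 numbered 650, 1062 with no filter and 415 at the 75th percentile, as the genes tested went from 10972 to 18193 and 6624. With 1 array left out Elovl6 ranged from -0.24 to 0.025, the latter without Scap-deleted replicate 2, and Rnf10 turned to 0.047 with the mean of probe sets. The replicate block changed no call of a member.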
